A study of Mus musculus with 10 samples.

Results

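The genes described here are 10 genes of platelet-derived growth factor (PDGF) signaling and of tumor fibroblasts and pericytes, out of 17864 genes in the deposited table. They were taken as a list of names: the ligand genes Pdgfa, Pdgfb and Pdgfc, the receptor genes Pdgfra and Pdgfrb, the contractile genes Acta2 and Tagln, the fibroblast genes Fap and Pdpn, and the pericyte gene Rgs5. This list and the gene lists below were chosen with earlier results of these data known. Counts set beside the share of all genes are therefore descriptions. All 10 were matched by Ensembl identifier and all 10 were among the 14816 genes with enough reads to be tested. RNA of whole tumors of 4T1, a mouse triple-negative mammary carcinoma line, was sequenced from 5 tumors of each group. The sgCon tumors grew from 4T1 cells with Cas9 and a control guide RNA. The sgTaz tumors grew from 4T1 cells with Cas9 and a guide RNA against Wwtr1, the gene of the Hippo pathway transducer TAZ. For each tumor, the methods give an injection of 100000 cells into a mammary fat pad, with female hosts aged 6 to 8 weeks. Both BALB/c and SCID hosts are described there, and which host carried the sequenced tumors is not given in the sources used here, nor is whether the edited cells were a clone or a pool. Editing was described for the 4T1 cells and not for the host, whose fibroblasts, pericytes and vessels were sequenced together with the tumor cells.

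PDGF ligands are dimers that bring receptor chains together at the cell surface and switch on their tyrosine kinase activity. PDGF-A binds the alpha receptor, PDGF-B binds both receptors, and PDGF-C is secreted with a CUB domain that must be cut off before it can activate the alpha receptor. In mammary tumors the alpha receptor is known mainly from fibroblasts and the beta receptor from pericytes and fibroblasts, and fibroblasts that take up a contractile state express smooth muscle actin (Acta2) and transgelin (Tagln).

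The sgCon tumors had 14753922 to 19595821 counts each and the sgTaz tumors 12185383 to 18395558, and each member had at least 35 counts in every tumor. Levels are given as CPM, the count of a gene scaled to the TMM-normalized total of its tumor. Wwtr1 itself was at 163.1 ± 30.2 CPM in sgCon tumors and 108 ± 19.2 CPM in sgTaz tumors (SD, n = 5 each), with 4 of 5 sgTaz tumors below every sgCon tumor. Its log2 fold change was -0.59 (edgeR adjusted p = 0.096, DESeq2 adjusted p = 0.0151, limma-voom adjusted p = 0.028). Keratin genes of epithelial tumor cells and collagen genes of fibroblasts were detected in all 10 tumors. The summed level of 15 fibroblast markers was lowest in sgCon tumor 3 and in sgTaz tumor 1, at 2467 and 2361 CPM, against 4262 to 6398 CPM in the other 8 tumors. Nothing in the labels says that the tumors of a group came from separate mice, so p-values measure the spread between these tumors.

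Pdgfc and the receptor genes had higher means in sgTaz tumors, Tagln and Acta2 had lower means, and Pdgfa, Pdgfb, Fap, Pdpn and Rgs5 differed by at most 0.20 on the log2 scale. With edgeR's quasi-likelihood test and Benjamini-Hochberg adjustment over all genes, 0 of the 10 members passed an adjusted p of 0.05, a threshold that 0.00675% of all genes tested passed. At an unadjusted p below 0.05, 4 of the 10 were past the threshold (Pdgfra, Pdgfc and Pdgfrb higher, Tagln lower), against 21.8% of all genes tested, 9.86% higher and 11.9% lower. DESeq2, the tool that the study's methods name, called 2 of the 10, Pdgfra and Pdgfc, both higher in sgTaz tumors, against 6.75% of the genes to which it gave an adjusted p, 3.28% higher and 3.47% lower. The limma-voom fit with sample quality weights called 3 of the 10, those genes and Tagln, against 10.4% of the genes tested, 4.63% higher and 5.80% lower. For no member were the groups free of overlap in CPM, as they were for 4.57% of all genes tested. In bulk RNA, fewer cells of a type and less RNA per cell cannot be told apart.

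**Figure D1:**
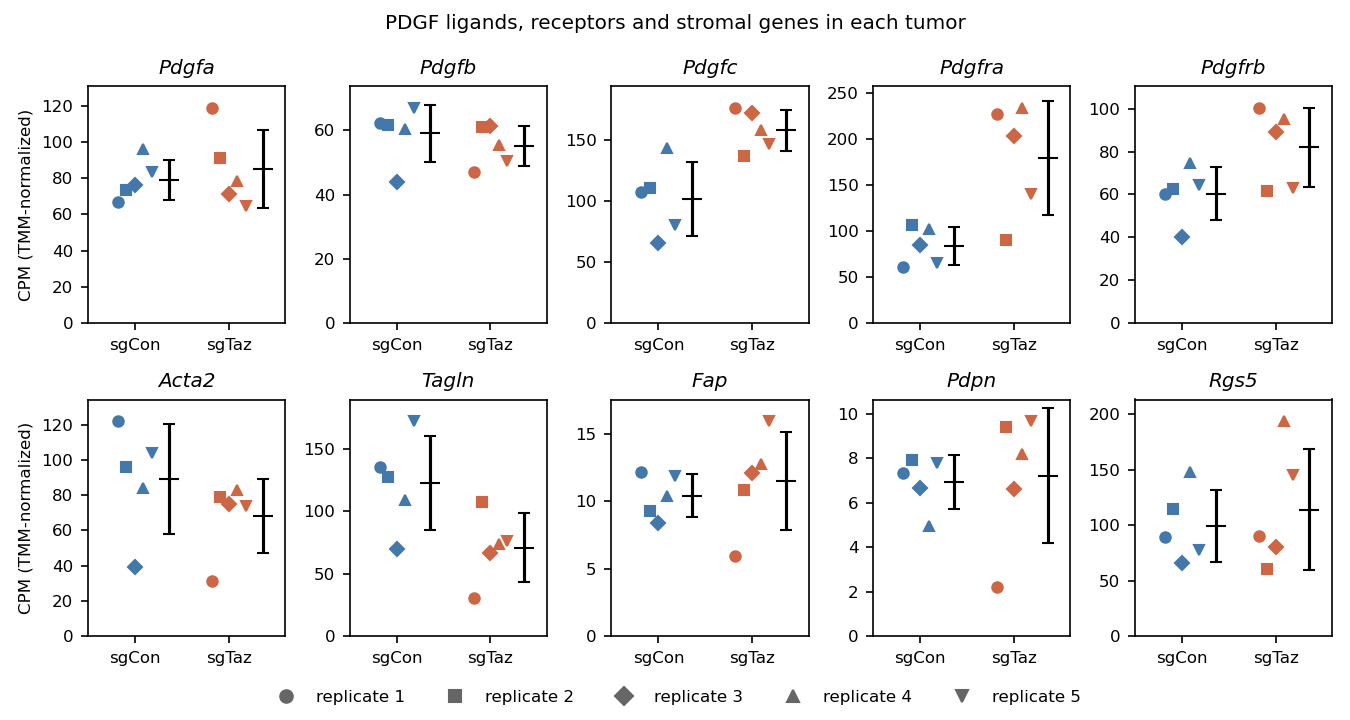
TMM-normalized CPM (y axis, from 0) of each of the 10 genes in the 5 sgCon and 5 sgTaz tumors (x axis), where each point is a tumor, the marker shape gives the replicate number, and the bars are the mean and SD of a group. For Pdgfc and Pdgfra, 4 of 5 sgTaz tumors lie above every sgCon tumor, while for Acta2, Tagln, Fap and Pdpn the sgTaz tumor with replicate number 1 is the lowest of its group.

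Levels of different genes were compared per length, as TPM over the merged exons of each gene. In sgCon tumors the order was Tagln at 193 ± 62.5 TPM, Acta2 at 127 ± 46.8 TPM, Pdgfa at 78.5 ± 9.32 TPM, Rgs5 at 67.5 ± 21.6 TPM, Pdgfc at 61.9 ± 18.1 TPM, Pdgfb at 44.1 ± 7.56 TPM, Pdgfrb at 34.2 ± 7.18 TPM, Pdgfra at 25.9 ± 6.50 TPM, Pdpn at 11.9 ± 2.42 TPM and Fap at 5.72 ± 0.991 TPM (SD, n = 5). The ranges over tumors overlapped for each pair of neighbors in this order except Pdgfra with Pdpn and Pdpn with Fap. In sgTaz tumors Pdgfc had rank 3 at 104 ± 12.5 TPM, next to Acta2 at 104 ± 32.6 TPM, and Pdgfra had rank 6 at 59.8 ± 21.5 TPM, above Pdgfrb at 49.95 ± 11.8 TPM. Pdpn and Fap remained the lowest of the 10 genes in both groups.

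Among the ligand genes, Pdgfc showed the largest difference. Pdgfc (ENSMUSG00000028019.9) lies on the plus strand of chromosome 3 of mm10 from 81036416 to 81214040 and shares 147 of 5089 exon bases with Gm16000 on the opposite strand. The sgCon tumors were at 108, 111, 65.2, 143 and 80.6 CPM in the order of their replicate numbers, and the sgTaz tumors at 177, 137, 172, 158 and 147 CPM. Only sgTaz tumor 2 lay within the range of the sgCon tumors, just below sgCon tumor 4. The means were 102 ± 30.2 CPM in sgCon and 158 ± 16.8 CPM in sgTaz (SD, n = 5 each), a 1.56-fold difference, with a log2 fold change of 0.64 (standard error 0.18) and an edgeR adjusted p of 0.103. Of all genes tested, 2.88% had a fold change at least as high. DESeq2 gave a log2 fold change of 0.65 with an adjusted p of 0.0206, and over all alternatives the adjusted p lay between 0.0206 and 0.244. An exact two-sided permutation test of log2 CPM gave p = 0.0159 (adjusted over all genes, 0.186), where the smallest p that 5 tumors against 5 allow is 0.00794.

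The promoter of Pdgfc is shown because TAZ acts on DNA through TEAD proteins, which bind the letters GGAATG, and contractile genes are known for CArG boxes, the site of serum response factor (SRF). RefSeq windows of 300 bases (build GRCm38.p6, from 250 bases before to 50 after a start) were found for 6 of the 10 members. Both motifs were searched on both strands, and their matches did not overlap. Before its start, at chr3:81036166-81036415 on the plus strand, Pdgfc holds 1 TEAD motif, whose first base is 137 bases before the start, and 1 exact CArG box, whose first base is 17 bases before it, both in capitals.
Pdgfc promoter: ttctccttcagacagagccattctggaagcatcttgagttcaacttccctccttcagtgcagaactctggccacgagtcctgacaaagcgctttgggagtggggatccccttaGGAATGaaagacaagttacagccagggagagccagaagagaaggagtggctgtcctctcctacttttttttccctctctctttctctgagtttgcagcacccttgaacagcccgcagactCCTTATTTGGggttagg
Over 32851 promoter windows of the same length, 14.7% hold the TEAD motif and 1.63% hold an exact CArG box. A further TEAD motif of Pdgfc begins 39 bases after the start, on the other strand. The windows of Pdgfra, Pdgfa, Pdpn and Rgs5 hold neither motif. A match of letters is a description and not a measured binding site.

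Pdgfa and Pdgfb differed little between groups. Pdgfa (ENSMUSG00000025856.15, chromosome 5 of mm10 from 138976014 to 138997370) ranged from 66.8 to 96.0 CPM in sgCon tumors and from 64.5 to 119 CPM in sgTaz tumors, with sgTaz tumor 1 above and sgTaz tumor 5 below every sgCon tumor. Its log2 fold change was 0.10 (standard error 0.16, edgeR adjusted p = 0.736), and it was -0.048 without sgTaz tumor 1. Of its 3119 exon bases, 813 are shared with 6330403L08Rik on the opposite strand. Pdgfb (ENSMUSG00000000489.7, chromosome 15 from 79995874 to 80014977) ranged from 44.0 to 67.1 CPM in sgCon and from 47.2 to 61.5 CPM in sgTaz tumors, so that all sgTaz tumors lay within the sgCon range. For Pdgfb, edgeR gave a log2 fold change of -0.10 with a standard error of 0.12 (adjusted p = 0.658).

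Pdgfra, the gene of the alpha receptor (ENSMUSG00000029231.15, plus strand of chromosome 5 of mm10 from 75152292 to 75198215), showed the largest difference of the 10 genes. The sgCon tumors had 61.3, 107, 84.3, 103 and 64.7 CPM in the order of their replicate numbers, and the sgTaz tumors had 228, 90.7, 203, 234 and 140.1 CPM. Again sgTaz tumor 2 alone lay among the sgCon tumors, and the other 4 were above all of them. Means of 83.9 ± 20.9 CPM and 179 ± 61.9 CPM (SD, n = 5 each) gave a 2.13-fold difference, a log2 fold change of 1.09 (standard error 0.26) and an edgeR adjusted p of 0.096. A fold change at least as high was found for 0.695% of all genes tested. The adjusted p was 0.00237 in DESeq2 (log2 fold change 1.11) and 0.0232 in limma-voom (log2 fold change 1.17), and it lay between 0.00237 and 0.233 over all alternatives. With each tumor left out in turn, edgeR called Pdgfra only without sgTaz tumor 2, the tumor that lay among the sgCon tumors. There the log2 fold change was 1.26 and the edgeR adjusted p was 0.0342. That fit called 75 genes, against 1 gene with all tumors. The exact permutation test of log2 CPM gave p = 0.0238 (adjusted, 0.205). Of its 10024 exon bases, 622 are shared with transcripts on the opposite strand and 30 with a transcript on its own strand.

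Pdgfrb, the gene of the beta receptor (ENSMUSG00000024620.11, chromosome 18 of mm10 from 61045150 to 61085061), moved in the same direction with a smaller size. Its levels were 60.2, 62.4, 40.4, 74.5 and 64.4 CPM in sgCon tumors 1 to 5 and 101, 61.8, 89.1, 95.5 and 63.2 CPM in sgTaz tumors 1 to 5. In 3 of 5 sgTaz tumors it was above every sgCon tumor, and sgTaz tumors 2 and 5 were near the sgCon median of 62.4 CPM. The log2 fold change was 0.44 (standard error 0.18, edgeR adjusted p = 0.192, DESeq2 adjusted p = 0.124), with means of 60.4 ± 12.5 CPM and 82.0 ± 18.3 CPM (SD, n = 5 each). Of all genes tested, 6.18% had a fold change at least as high.

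**Figure D2:**
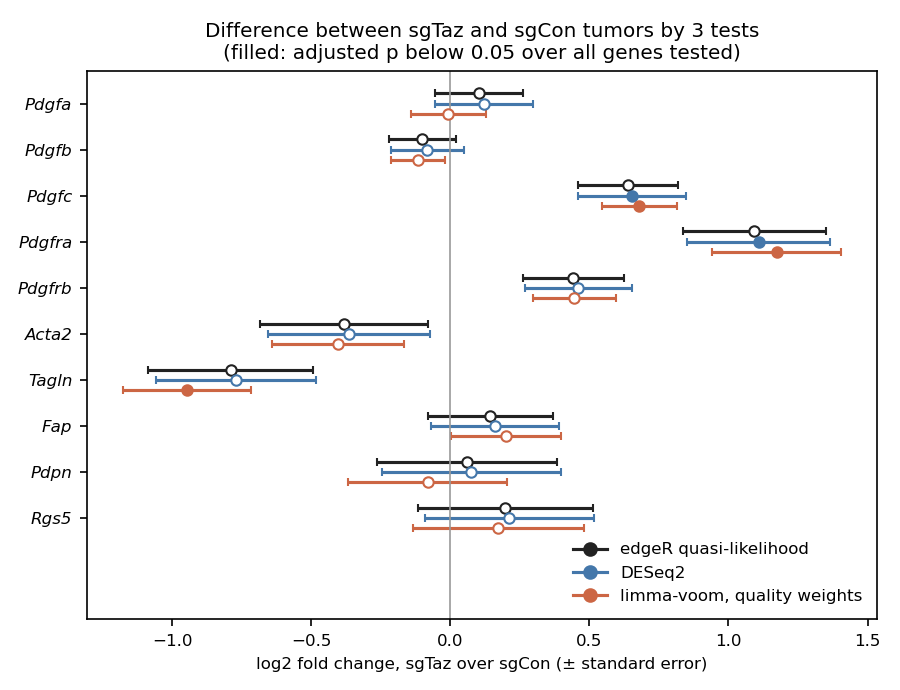
Log2 fold change of sgTaz over sgCon tumors (x axis) with its standard error for each of the 10 genes (y axis) by edgeR, DESeq2 and limma-voom, where a filled point has an adjusted p below 0.05 over all genes tested by that tool. Filled points are Pdgfc and Pdgfra in DESeq2 and limma-voom and Tagln in limma-voom, and no edgeR point is filled.

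The contractile genes had lower means in sgTaz tumors. Tagln encodes transgelin, an actin-binding protein of smooth muscle and contractile fibroblasts (ENSMUSG00000032085.5, chromosome 9 of mm10, 45929619 to 45936058, minus strand). It was at 135, 128, 70.0, 109 and 172 CPM in sgCon tumors 1 to 5 and at 30.7, 107, 66.7, 74.1 and 76.0 CPM in sgTaz tumors 1 to 5. Tumors 1 and 3 of sgTaz were below every sgCon tumor, and the other 3 sgTaz tumors were above sgCon tumor 3 only. The means were 123 ± 37.4 CPM and 71.0 ± 27.4 CPM (SD, n = 5 each), 1.73-fold higher in sgCon, with a log2 fold change of -0.79 (standard error 0.30) and an edgeR adjusted p of 0.167. A fold change at least as low was found for 5.22% of all genes tested. The adjusted p was 0.0772 in DESeq2 and 0.0315 in limma-voom (log2 fold change -0.95), and it lay between 0.0315 and 0.336 over all alternatives. On the opposite strand, Pcsk7 and Gm48529 share 1349 of the 1988 exon bases of Tagln, and whether the counting used strand is not stated, so the counts of Tagln are uncertain. Pcsk7 was at 36.5 ± 4.94 CPM in sgCon and 33.4 ± 2.998 CPM in sgTaz tumors (SD, n = 5 each).

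Acta2, the gene of smooth muscle actin (ENSMUSG00000035783.9, chromosome 19 of mm10, 34241090 to 34255590, minus strand), shares no exon base with another gene. It was at 122, 95.8, 39.2, 84.3 and 104 CPM in sgCon tumors 1 to 5 and at 31.4, 78.7, 75.0, 82.7 and 73.7 CPM in sgTaz tumors 1 to 5. The lowest sgCon tumor and the lowest sgTaz tumor were the same tumors as for the fibroblast markers, sgCon tumor 3 and sgTaz tumor 1. With means of 89.0 ± 31.0 CPM and 68.3 ± 20.9 CPM (SD, n = 5 each), the log2 fold change of -0.38 was near its standard error of 0.30 (edgeR adjusted p = 0.479), and it was -0.20 without sgTaz tumor 1 and -0.56 without sgCon tumor 3. The promoter window of Acta2 holds 1 TEAD motif and 2 CArG boxes with 1 mismatch in the A/T core, and 9.98% of all windows hold at least 1 such box. They are shown as runs of 30 bases on the minus strand with the motif in capitals, from chr19:34255502-34255531, chr19:34255438-34255467 and chr19:34255388-34255417, beginning 146, 84 and 34 bases before the RefSeq start. The GENCODE bounds of Acta2 reach further upstream, to 34255590, so these sites lie within the annotated gene.
Acta2 TEAD motif: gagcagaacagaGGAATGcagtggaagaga
Acta2 CArG box, upstream: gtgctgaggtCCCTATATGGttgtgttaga
Acta2 CArG box, downstream: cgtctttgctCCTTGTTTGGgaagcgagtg

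Fap and Pdpn, genes of activated fibroblasts, were the lowest members and differed little between groups. Fap encodes a cell surface protease (ENSMUSG00000000392.17, chromosome 2 of mm10 from 62500943 to 62574075) and ranged from 8.42 to 12.2 CPM in sgCon and from 5.98 to 15.9 CPM in sgTaz tumors. For Fap, the log2 fold change of 0.14 was below its standard error of 0.23 (edgeR adjusted p = 0.739). Pdpn encodes podoplanin, which is also found on lymphatic endothelium (ENSMUSG00000028583.14, chromosome 4 from 143267431 to 143299564), and it ranged from 4.94 to 7.91 CPM in sgCon tumors. In sgTaz tumors it was at 2.23 CPM in tumor 1 and at 6.64 to 9.68 CPM in the other 4, of which 3 were above every sgCon tumor. The log2 fold change of Pdpn was 0.059 (standard error 0.32, edgeR adjusted p = 0.934), and its sign changed when sgCon tumor 4, sgTaz tumor 2 or sgTaz tumor 5 was left out (-0.041, -0.056 and -0.067).

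Rgs5, a regulator of G protein signaling that marks pericytes (ENSMUSG00000026678.10, chromosome 1 of mm10 from 169655501 to 169695813), varied more than any ligand gene within the groups. The sgCon tumors ranged from 65.8 to 148 CPM and the sgTaz tumors from 60.5 to 194 CPM, with sgTaz tumor 4 the highest and sgTaz tumor 2 the lowest of all 10. Its log2 fold change was 0.20 (standard error 0.31, edgeR adjusted p = 0.742), and -0.078 without sgTaz tumor 4. Of 10 further pericyte markers, 5 had a log2 fold change above 0 and 5 below, with a median of -0.052 against -0.019 over all genes tested. Des, the gene of desmin, which muscle cells also express, was the only one past an unadjusted p of 0.05. It was at 16.0 ± 8.49 CPM in sgCon and 6.86 ± 4.43 CPM in sgTaz tumors (SD, n = 5 each), with a log2 fold change of -1.23 (edgeR adjusted p = 0.153, DESeq2 adjusted p = 0.0492). Des was highest in sgCon tumor 3, at 29.5 CPM, where the summed level of 7 skeletal muscle markers was highest as well, at 46.8 CPM. The part of muscle in the level of Des was not tested, and its log2 fold change was -0.88 without that tumor.

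The other genes of the pathway were taken as a list of 26 genes, from ligand processing through docking proteins to negative regulators, all of which were tested. Of these, 18 had a log2 fold change above 0, against 47.0% of all genes tested, and their median was 0.12. At an unadjusted p below 0.05, 8 of the 26 were higher and 0 lower in sgTaz tumors, where 9.86% of all genes were higher and 11.9% lower. edgeR called 0 of the 26 after adjustment, and DESeq2 called 4, all higher, where 3.28% of all genes were higher. Plat encodes tissue plasminogen activator, a protease that also releases active PDGF-C, and was at 44.3 ± 7.91 CPM in sgCon and 68.0 ± 9.55 CPM in sgTaz tumors (SD, n = 5 each). Its log2 fold change was 0.62 (edgeR adjusted p = 0.0896, DESeq2 adjusted p = 0.00265), and its groups did not overlap, as for 2.44% of all genes in this direction. Ptprj, a receptor phosphatase that acts on PDGF receptors, had a log2 fold change of 0.45 (DESeq2 adjusted p = 0.012). Lrp1, an endocytic receptor, and Nrp1, a co-receptor, had log2 fold changes of 0.50 and 0.85 (DESeq2 adjusted p = 0.0418 and 0.0451). Ptpn11, the phosphatase SHP2, and the adaptor Crkl were the other genes without overlap, with log2 fold changes of 0.15 and 0.18. Pdgfd, the ligand gene that was not a member, was low, at 2.95 ± 1.15 CPM in sgCon and 4.47 ± 1.71 CPM in sgTaz tumors (SD, n = 5 each; edgeR adjusted p = 0.312).

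Of 17 further genes of the contractile apparatus and its regulators, 16 were tested, and Myocd, the gene of myocardin, fell below the filter with at most 5 counts in a tumor. Of the 16, 5 had a log2 fold change above 0 and 11 below, where 47.0% of all genes tested were above 0. Their median was -0.19, and it was -0.082 without sgCon tumor 3 and -0.35 without sgTaz tumor 5. At an unadjusted p below 0.05, 2 were higher and 3 lower, against 9.86% and 11.9% of all genes tested, and neither edgeR, DESeq2 nor limma-voom called any of them. The lower genes were the calponin gene Cnn2 (log2 fold change -0.34), the SRF coactivator gene Mrtfa (-0.51) and the tropomyosin gene Tpm2 (-0.59), with edgeR adjusted p-values of 0.142, 0.142 and 0.209. Without sgCon tumor 3, Cnn2 was at -0.21 and Mrtfa at -0.34. Mylk, the gene of myosin light chain kinase (0.55), and Mrtfb (0.19) were the higher genes, with edgeR adjusted p-values of 0.167 and 0.20. Of the exon bases of Mylk, 772 are shared with transcripts on the opposite strand.

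Markers of other cell types are given as lists beside the members. Of 15 fibroblast markers tested, 7 had a log2 fold change above 0 and 8 below (median -0.049, from -0.20 without sgTaz tumor 5 to 0.080 without sgTaz tumor 1), and their summed level was 2467 to 6398 CPM in sgCon and 2361 to 6010 CPM in sgTaz tumors. Ddr2, a collagen receptor gene, was higher without overlap, as 2.44% of all genes tested were (log2 fold change 0.59, edgeR adjusted p = 0.0824, DESeq2 adjusted p = 0.000332). Thy1, a surface glycoprotein gene, was lower (-0.61, edgeR adjusted p = 0.124, DESeq2 adjusted p = 0.0421). All 8 macrophage markers had a log2 fold change above 0 (median 0.48), where 47.0% of all genes tested were above 0. At an unadjusted p below 0.05, 5 of them were higher, against 9.86% of all genes tested. DESeq2 called 3 of them higher, against 3.28% of all genes. Their summed level was 759 to 1787 CPM in sgCon and 1478 to 2068 CPM in sgTaz tumors. All 8 epithelial tumor cell markers were below 0 (median -0.48, from -0.95 without sgTaz tumor 2 to -0.26 without sgCon tumor 1), with summed levels of 2108 to 4967 CPM and 1609 to 3858 CPM. At an unadjusted p below 0.05, 4 of them were lower, against 11.9% of all genes tested. DESeq2 called 1 of them lower, Krt19 (adjusted p = 0.0374), against 3.47% of all genes. Of 8 blood endothelium markers 6 were above 0 (median 0.12), of 5 lymphatic endothelium markers 1 was (median -0.82), and of 5 myoepithelial markers 1 was (median -0.22). Krt14 was the only gene of the myoepithelial list past an unadjusted p of 0.05. It was lower, with a log2 fold change of -1.15 (edgeR adjusted p = 0.10, DESeq2 adjusted p = 0.00875). Among sgTaz tumors, Krt14 was lowest in tumor 1 and highest in tumor 2, at 27.2 and 118 CPM, as the summed epithelial tumor cell markers were. Whether its RNA came from tumor cells or from myoepithelial cells was not tested. All 6 adipocyte markers tested were above 0 (median 1.38), but the sgTaz tumors were split. Summed levels were 54.0 to 121 CPM in sgCon tumors and 246, 208 and 242 CPM in sgTaz tumors 3, 4 and 5. In sgTaz tumors 1 and 2 they were 52.6 and 39.7 CPM, below every sgCon tumor. At an unadjusted p below 0.05, 0 of the adipocyte markers were past the threshold, and edgeR, DESeq2 and limma-voom called 0. Of 7 markers listed for lymph node stroma, Madcam1 and Chst4 fell below the filter and the other 5 were below 0 (median -2.52, from -7.17 without sgTaz tumor 5 to -1.60 without sgCon tumor 3), with summed levels of 41.0 to 843 CPM in sgCon, 390.0 CPM in sgTaz tumor 5 and 1.42 to 6.72 CPM in the other sgTaz tumors. Cr2 and Fcer2a of this list are also expressed by B cells, so the list is not one of stroma alone. Of that list, edgeR called 0 genes (0 at an unadjusted p below 0.05) and DESeq2 called 0. The limma-voom fit called all 5 tested lower, against 5.80% of all genes tested. All but Ccl21a were at 0 counts in some tumors, and the size of the fold change differed between fits. Ccl19 was at -2.82 in edgeR, -2.80 in DESeq2 and -5.06 in limma-voom, and Cr2 at -2.52, -2.50 and -5.10. Of 5 markers of platelets, which carry PDGF proteins, Pf4 and Itga2b were tested (median -0.37), and of 7 skeletal muscle markers, Mylpf (log2 fold change -0.84) and Tnnt3 (0.58) were. The other 5 muscle markers fell below the filter and had lower means in sgTaz tumors, with Acta1 at 3.05 CPM in sgCon and 0.0382 CPM in sgTaz, Myh4 at 3.34 CPM in sgCon and 0 counts in sgTaz, and Ckm at 2.05 and 0.286 CPM. The part of these cell types in the values of the members was not tested.

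**Figure D3:**
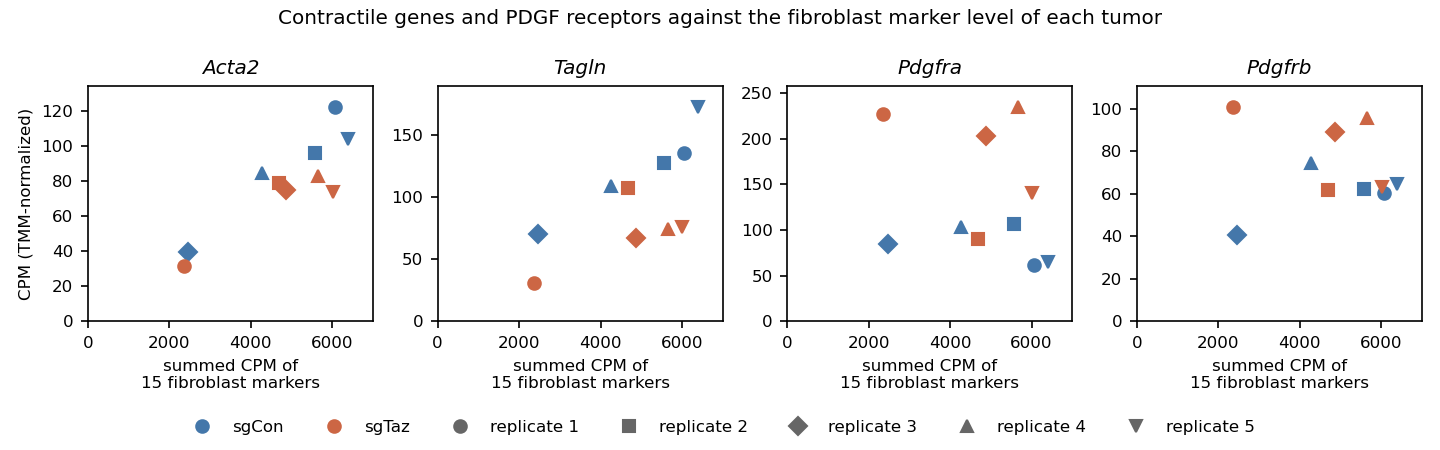
CPM of Acta2, Tagln, Pdgfra and Pdgfrb (y axes, from 0) against the summed CPM of 15 fibroblast markers (x axis, from 0) in the 10 tumors, colored by group, with the marker shape giving the replicate number. Acta2 and Tagln are lowest in the pair of tumors with the lowest fibroblast marker level, 2467 and 2361 CPM, apart from sgTaz tumor 3, whose Tagln of 66.7 CPM lies below the 70.0 CPM of sgCon tumor 3, while Pdgfra is at 84.3 and 228 CPM in that pair.

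Within the groups, the members fell into different patterns between tumors. Correlations were computed on log2 CPM over 10 tumors after the group means were taken off, and are descriptions of tumors whose genes share a library and its composition. Acta2 and Tagln went together (Pearson's r = 0.90, Spearman's rho = 0.70), and r was 0.41 once the 2 tumors with the most extreme Acta2 were left out. Acta2 had r = 0.87 and Tagln r = 0.77 with the mean of the fibroblast markers, while Pdgfra had r = -0.14, Pdgfrb r = 0.09 and Pdgfc r = 0.10. Fap (r = 0.88) and Pdpn (r = 0.75) were like Acta2 in this respect, but the r of Fap with Pdpn, 0.83, was 0.0062 once the 2 tumors with the most extreme Fap were left out. These correlations were not particular to the fibroblast markers. With the mean of the epithelial tumor cell markers, Tagln had r = 0.81, Acta2 r = 0.74, Fap r = 0.53 and Pdpn r = 0.52. Pdpn had r = 0.82 with the mean of the myoepithelial markers.

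Pdgfc and Pdgfrb went together with r = 0.77 (rho = 0.67), and r was 0.82 once the 2 tumors with the most extreme Pdgfc were left out. Pdgfra had r = 0.61 with Pdgfrb and r = -0.60 with Tagln (0.42 and -0.58 with 2 tumors left out in the same way). With the means of marker lists, Pdgfra had r = 0.72 for macrophages and r = -0.81 for epithelial tumor cells. Rgs5 had r = 0.81 with blood endothelium and r = 0.77 with the other pericyte markers, and its r with Acta2 was 0.29. Pdgfb went with Acta2 (r = 0.86) and Tagln (r = 0.80), but its r with Acta2 was 0.21 with 2 tumors left out. Pdgfa had r = -0.77 with both Fap and Pdpn and r = -0.70 with the fibroblast markers. With the 2 tumors of most extreme Pdgfa left out, its r was -0.54 with Fap and 0.16 with Pdpn, so that the sign for Pdpn turned.

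**Figure D4:**
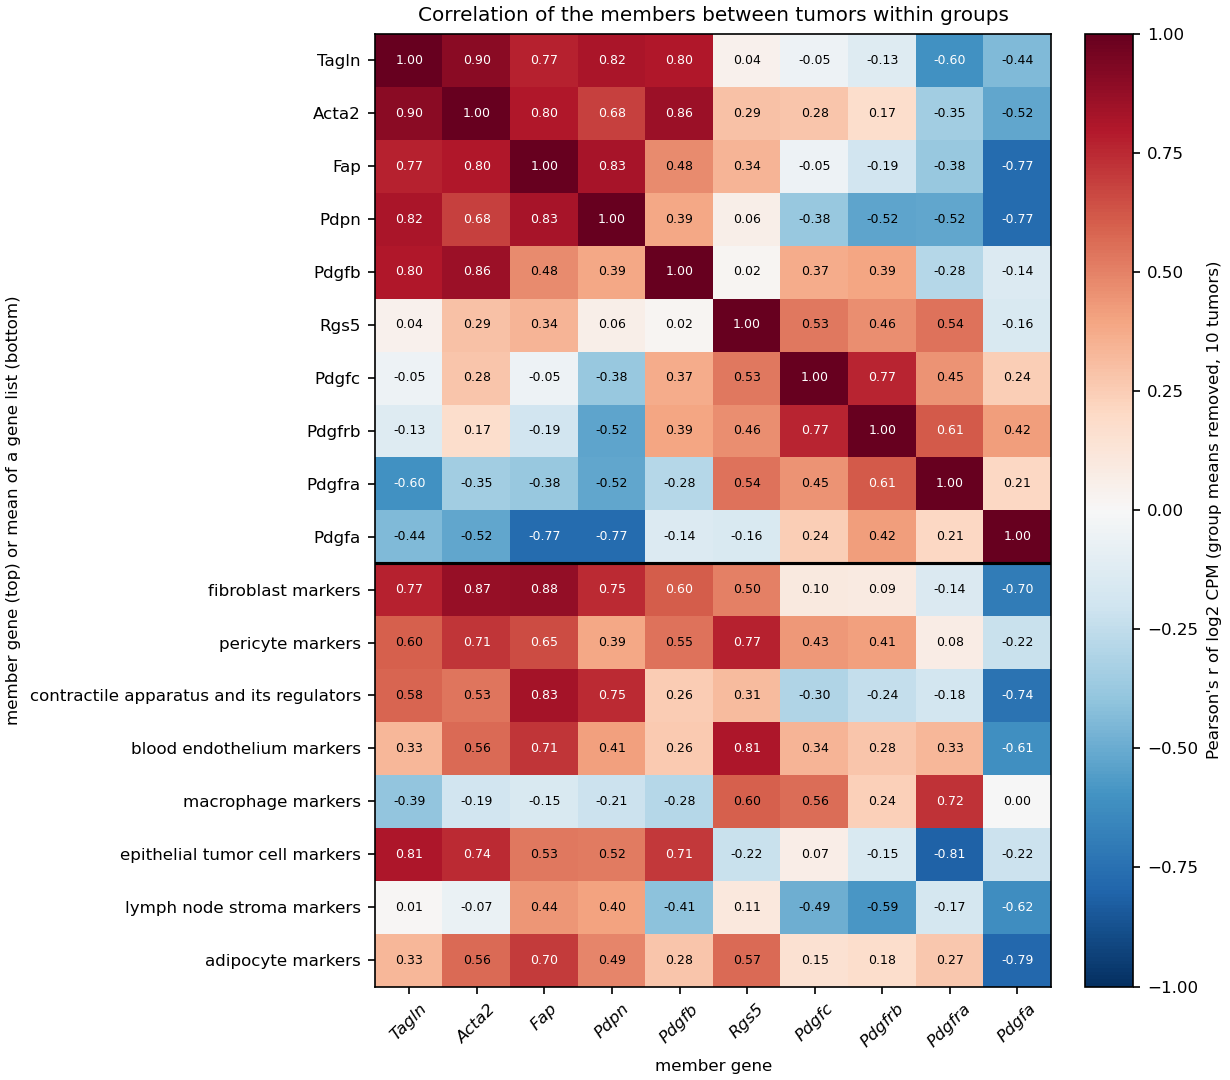
Pearson's r of log2 CPM over 10 tumors with the group means removed (color and printed value), for each of the 10 genes (x axis) with each other gene and with the mean of 8 gene lists (y axis). Acta2, Tagln, Fap and Pdpn have r between 0.68 and 0.90 with each other, which lay between 0.0062 and 0.50 with 2 tumors left out, and Pdgfra, Pdgfrb and Pdgfc have r between 0.45 and 0.77 with each other.

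The genes most like a member within groups, among those with a mean of at least 1 CPM, were named by the same measure over 10 tumors. They are the top 3 of a search over all such genes, so a high r is in part set by the search. For Acta2 they were Col1a2 (r = 0.98), itself a fibroblast marker here, Vcan (r = 0.97) and Cthrc1 (r = 0.97), and for Tagln they were P4ha3, Serpinf1 and Loxl2 (each r = 0.98). With the 2 tumors of most extreme member level left out, Col1a2 had r = 0.60 with Acta2, while Loxl2 had r = 0.99 with Tagln. In the same way, Bdkrb1 had r = 0.66 with Fap, Gfpt2 r = 0.70 with Pdpn and Fitm2 r = 0.99 with Pdgfra. Pdgfra was most like Serinc3 (r = 0.97), Plekhh2 (r = 0.96) and Fitm2 (r = 0.96), Pdgfrb most like Ltbp2 (r = 0.97), Cfl2 (r = 0.95) and Agpat5 (r = 0.95), and Pdgfc most like Cd33 (r = 0.97), Itgb5 (r = 0.96) and Tmem273 (r = 0.96). Pdgfb was most like Hs2st1 (r = 0.96), Sccpdh (r = 0.95) and Ccn2 (r = 0.95), and Pdgfa most like Gm43965 (r = 0.98), Il34 (r = 0.97) and Mrm3 (r = 0.97). For Fap they were Islr (r = 0.96), Bdkrb1 (r = 0.95) and Arfgef3 (r = 0.95), for Pdpn Gfpt2 (r = 0.97), Khdrbs3 (r = 0.96) and Clmp (r = 0.95), and for Rgs5 Slc16a12 (r = 0.96), Hoxd8 (r = 0.93) and Gm48065 (r = 0.93).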

How the data were processed

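Per the labels and the methods, RNA of 5 sgCon and 5 sgTaz whole 4T1 tumors was sequenced on an Illumina HiSeq instrument. Reads were aligned by the authors to mm10 (STAR, 2-pass, GENCODE annotation), passed through RSeQC and assigned to genes with featureCounts of Subread. The deposited values are raw counts of 17864 genes. Tool versions, strand setting and the rule for listing genes are not given in the sources used here. A further 5 columns were left unused.

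Genes were named from GENCODE M21 (17860 matched). Counts were tested in R 4.3.3 with edgeR 4.0.16 (TMM, filterByExpr, glmQLFit, glmQLFTest, Benjamini-Hochberg over 14816 genes, threshold 0.05), with 3048 genes below the filter. Log2 CPM used a prior count of 2. TPM was computed over merged exons. Alternatives were DESeq2 1.42.0, limma-voom (limma 3.58.1) with quality weights, upper-quartile or RLE scaling, no filter, at least 10 counts in every tumor, a replicate block, each tumor left out, and an exact two-sided permutation test of log2 CPM over 252 splits. Python 3.11.15 (numpy 2.4.6, scipy 1.17.1, pandas 2.3.3, matplotlib 3.10.9) made tables and figures. The fits were tested on simulated data. Tumors of a group differed by more than sampling noise (chi-square per degree of freedom at least 6.16).

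The members and gene lists were chosen with earlier results of these data known. Named are the members, Wwtr1, up to 4 genes of smallest p per list, and the 3 genes most like each member with a mean of at least 1 CPM. Pcsk7, Pdgfd, Ptpn11, Crkl, Tpm2 and genes below the filter or at 0 were named after their values were seen.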

Additional observations from a re-analysis of the deposited data

Results flagged for a closer look

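In groups of 5 tumors, a tumor is listed here where its gap to the nearest other tumor took up more than 0.71 of the range of its group on the log2 CPM scale. Of 118 combinations of a gene and a group examined, 9 held such a tumor, where chance gives about 5.9 if the combinations are independent. Genes measured in the same tumors are not independent, so the chance figure is a rough guide. Acta2 was at 4.98 in sgTaz tumor 1, against 6.21 to 6.37 in the other sgTaz tumors. In the same tumor, Pdpn was at 1.23, against 2.76 to 3.29. Pdgfb was at 5.46 in sgCon tumor 3, against 5.92 to 6.07 in the other sgCon tumors. These 2 tumors also had the lowest summed fibroblast markers, and whether the values are linked was not tested.

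Among genes of the lists, Mrtfa was at 5.50 in sgTaz tumor 5 (5.10 to 5.21 in the others of its group), Mylk at 4.33 in sgTaz tumor 2 (5.21 to 5.53), and Ccl19 at 3.16 in sgTaz tumor 5 (-3.01 to -1.67). Prox1 was at -2.09 in sgCon tumor 4 (0.47 to 1.13). The lowest counts were 0 for Ccl19 and 2 for Prox1, where the prior count of 2 weighs on log2 CPM. Of the keratin genes, those listed were Krt8, at 10.4 in sgCon tumor 1 (9.55 to 9.75), and Krt18, at 9.95 in sgTaz tumor 2 (9.09 to 9.33).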

How the results depend on the processing

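The number of genes called depended on the tool and the tumors. edgeR called 1 gene (1 higher, 0 lower; 3226 at an unadjusted p below 0.05), 0 without a filter (3610 unadjusted) and 5 with at least 10 counts in every tumor (4 higher, 1 lower). DESeq2 called 1085 (527 higher, 558 lower) and limma-voom with quality weights 1546 (686 higher, 860 lower). With 1 tumor left out, the number lay between 0 and 172 (0 to 42 higher, 0 to 130 lower), with 172 without sgTaz tumor 5 and 75 without sgTaz tumor 2. Members called were 2 in DESeq2, 3 in limma-voom and 0 to 1 with a tumor left out. The members past the threshold under an alternative were Pdgfra (log2 fold change 1.11 in DESeq2, 1.17 in limma-voom, 0.98 to 1.26 with a tumor left out), Pdgfc (0.65 in DESeq2, 0.68 in limma-voom, 0.52 to 0.80 with a tumor left out) and Tagln (-0.95 in limma-voom, -0.99 to -0.60 with a tumor left out). The direction of Pdgfb, Pdgfc, Pdgfra, Pdgfrb, Acta2, Tagln and Fap was the same under all 18 alternatives run for each, with Fap at 0.00066 without sgTaz tumor 5. Pdgfa changed sign in limma-voom (-0.0065) and without sgTaz tumor 1 (-0.048, and 0.19 at most with another tumor left out). The log2 fold change of Pdpn changed sign in limma-voom (-0.082), in the mean of log2 CPM (-0.080) and without sgCon tumor 4 (-0.041), sgTaz tumor 2 (-0.056) or sgTaz tumor 5 (-0.067), and was at 0.29 without sgTaz tumor 1. Rgs5 changed sign without sgTaz tumor 4 (-0.078, and 0.39 without sgCon tumor 4). With a tumor left out, Vwf was at -0.0035 (without sgTaz tumor 5) to 0.48, Flt4 at -0.028 (without sgTaz tumor 4) to 0.28 and Tnnt3 at -0.094 (without sgTaz tumor 2) to 0.76. The cause was not tested.

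The replicate numbers, which run from 1 to 5 in both groups, did not pair the tumors: the deviations of same-numbered tumors correlated at -0.15, -0.24, -0.049, 0.093 and 0.22. With the replicate number as a block, the number of genes called by edgeR was 0 (2462 at an unadjusted p below 0.05) and the number of members called was 0, and the log2 fold change of Pdpn was -0.046.

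With 35 to 158 counts per tumor for Pdpn and 94 to 225 for Fap, counting error weighs more on these genes than on the other members. With a tumor left out, list medians lay between -0.23 and 0.015 for pericyte, 0.0027 and 0.26 for blood endothelium, -1.37 and -0.54 for lymphatic endothelium, 0.35 and 0.65 for macrophage, -0.46 and -0.27 for platelet, -0.43 and -0.094 for myoepithelial, 1.05 and 1.72 for adipocyte, and -0.50 and 0.19 for skeletal muscle markers. The median log2 fold change of all genes lay between -0.026 and -0.0061 over the settings.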

Other observations

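Ratios within a tumor do not depend on the scaling of its total. The ratios below were chosen after the values were seen and were not tested. The ratio of Pdgfra to Pdgfrb in TPM was 0.556, 0.935, 1.14, 0.754 and 0.549 in sgCon tumors 1 to 5 and 1.24, 0.802, 1.25, 1.34 and 1.21 in sgTaz tumors 1 to 5. The alpha receptor gene was thus the higher of the receptor genes in 4 of 5 sgTaz tumors and in sgCon tumor 3 only. The ratio of Tagln to Acta2 was 1.58 ± 0.308 in sgCon and 1.14 ± 0.216 in sgTaz tumors (SD, n = 5 each), with ranges of 1.22 to 1.97 and 0.983 to 1.51, and it shares the uncertainty of the Tagln counts. The ratio of Pdgfc to Pdgfa was at or below 0.987 in every sgCon tumor and reached 1.48, 1.23 and 1.40 in sgTaz tumors 3, 4 and 5, while sgTaz tumors 1 and 2 were at 0.909 and 0.918, within the sgCon range.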
